A study of Rattus norvegicus with 50 samples.

Results

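A set of 9 tissue macrophage genes was followed in the rat mammary gland: Cd163, Mrc1, Clec10a, Cd209f, Arg1, Lyve1, F13a1, Adgre1 and Ccr1. They were listed by name as genes of tissue macrophages, with earlier results of these data known. Each was read from the probeset that carries its symbol alone. All 9 were measured, each by 1 such probeset, out of 18166 genes, and all 9 lay among the 15117 genes that passed a filter on low signal, which asked for a mean over 5.58 in 1 or more of the 10 groups. Of the 9 products, 7 are surface receptors, while Arg1 and F13a1 code for enzymes.

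The study profiled caudal mammary glands of 50 female Sprague-Dawley rats, an outbred strain, on Affymetrix Rat Gene 2.0 ST arrays, with 1 array and 1 animal per sample. Rats received DEP (diethyl phthalate), MPB (methyl paraben), TCS (triclosan), a mixture of these chemicals (MIX) or only olive oil, the vehicle (OIL). Exposure began on postnatal day 1 and ended on day 180, through the milk of gavaged dams until weaning at day 28 and by oral gavage afterwards, and all animals were killed on day 181. Each treatment was given to 5 nulliparous rats and to 5 parous rats, the latter mated at day 97 and killed after their own pups had been weaned. The labels name no genetic change for any group, and littermates were kept out of the same group. The vehicle, the route and the separation of littermates are described for the DEP and oil groups and are assumed for the others. The comparisons ask whether a chemical, or a completed pregnancy and lactation, was followed by another level of the macrophage genes in the adult gland. Rats are named below by treatment, parity (par or null) and animal number.

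Resident macrophages of the mammary gland lie along the ducts and in the fat and connective tissue around them. They clear dying cells and matrix during remodelling and take up glycoproteins, hyaluronan and haemoglobin complexes through scavenger and lectin receptors. Cd163, Mrc1, Cd209f and Lyve1 belong to that uptake machinery, although Lyve1 also marks lymphatic vessels. Whole tissue was measured, so fewer cells of a type and less RNA per cell cannot be told apart in any value that follows.

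Promoters of 7 members could be matched by symbol in RefSeq (assembly GRCr8), each as a window of 300 bases that ends 50 bases inside the gene. Clec10a and Arg1 had no entry. The windows were searched on both strands for letters bound by factors of myeloid cells and macrophages. GAGGAA, the core letters of PU.1, a master regulator of the myeloid lineage, occurred in 4 of 7 member promoters and in 27.5% of all 27457 promoters of that length. The C/EBP letters TTGCNNAA occurred in F13a1 and Adgre1 (10.5% of all promoters), the STAT6 letters TTC and GAA, 4 bases apart, in Lyve1 (7.27%), the AP-1 letters TGANTCA in Cd209f (7.33%) and the MAF letters TGCTGA in Adgre1 (18.6%), while the E-box CACGTG (6.65%) occurred in none of the 7. The 4 promoters with the PU.1 letters are shown as those in which the search found its most frequent letters among the members. They lie at chr17:82157475-82157774 (plus strand) for Mrc1, chr17:28020947-28021246 (plus strand) for F13a1, chr9:2329190-2329489 (plus strand) for Adgre1 and chr8:132439217-132439516 (minus strand) for Ccr1. Each is written 5′ to 3′ along the gene, with capitals for GAGGAA or its reverse complement.
Mrc1: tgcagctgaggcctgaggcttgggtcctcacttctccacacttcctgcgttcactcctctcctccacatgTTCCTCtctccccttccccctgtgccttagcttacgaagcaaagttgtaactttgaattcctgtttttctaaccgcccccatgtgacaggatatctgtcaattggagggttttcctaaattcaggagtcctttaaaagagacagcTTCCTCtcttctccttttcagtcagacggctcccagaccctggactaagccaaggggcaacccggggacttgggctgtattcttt
F13a1: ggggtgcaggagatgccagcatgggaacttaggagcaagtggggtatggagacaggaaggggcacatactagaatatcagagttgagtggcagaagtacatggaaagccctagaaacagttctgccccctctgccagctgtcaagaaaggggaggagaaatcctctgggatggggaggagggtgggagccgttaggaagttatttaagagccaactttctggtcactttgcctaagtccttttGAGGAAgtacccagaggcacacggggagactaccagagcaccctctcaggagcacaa
Adgre1: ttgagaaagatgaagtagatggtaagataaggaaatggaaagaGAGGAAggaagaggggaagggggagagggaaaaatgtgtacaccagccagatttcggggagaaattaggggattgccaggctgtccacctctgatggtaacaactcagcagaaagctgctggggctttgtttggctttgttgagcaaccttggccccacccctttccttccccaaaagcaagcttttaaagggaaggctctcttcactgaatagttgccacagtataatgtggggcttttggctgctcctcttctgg
Ccr1: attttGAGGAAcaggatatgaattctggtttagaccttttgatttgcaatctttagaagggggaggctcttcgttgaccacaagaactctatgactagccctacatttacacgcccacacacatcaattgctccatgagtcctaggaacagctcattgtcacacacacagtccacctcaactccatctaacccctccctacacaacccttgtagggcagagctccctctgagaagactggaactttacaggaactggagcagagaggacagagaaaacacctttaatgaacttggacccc
Mrc1 held the letters at 2 places, both on the opposite strand, and in F13a1 they ended 2 bases before the start of the gene. A match describes the letters of a window and is not a binding site. Spi1, the gene of PU.1, did not pass in DEP-treated rats against controls (log2 difference 0.54, SE 0.27 in parous rats and 0.19, SE 0.27 in nulliparous rats), and it was higher than in MIX-treated parous rats (0.90, SE 0.27, adjusted p = 0.0238).

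All values are log2 signals, so that a difference of 1 is a 2-fold ratio. Array medians lay between 6.70 and 6.91. RNA had been extracted with a Promega kit in 26 rats and a Zymo kit in 24, with 1 Promega and 4 Zymo rats in each DEP group and 3 and 2 in every other group. Between kits, 82.3% of genes and all 9 members had an adjusted p under 0.05 (limma), and 6 of 9 members, against 46.8% of all genes, also passed the call rule given further on. Clec10a (2.42), Arg1 (2.04), Cd209f (1.79) and Ccr1 (1.26) read higher with the Zymo kit, whereas F13a1 (−0.93), Cd163 (−0.83), Mrc1 (−0.53), Lyve1 (−0.47) and Adgre1 (−0.38) read lower. The kit was therefore a term in every test, and the values by rat that follow have this difference removed.

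A gene was called where limma gave an adjusted p under 0.25 and the difference was at least 1.5-fold (0.58 on the log2 scale), with adjustment over all 15117 genes. In nulliparous rats, all 9 members were lower in DEP-treated rats than in controls and all 9 were called, against 2.23% of all genes (2.09% lower). In parous rats all 9 were lower again and 7 were called, against 6.67% of all genes (4.92% lower). The median difference of the members was −0.97 in nulliparous and −1.02 in parous rats, where the median over all genes was −0.03 and −0.02. Differences below 0 were found in 56% and 53.9% of all genes. Mrc1 and Lyve1 were not called in parous rats. Because the members were chosen with earlier results of these data known, these counts describe the set and are not independent support. F13A1 is also part of the gene signature of DEP that the paper reports.

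**Figure D1:**
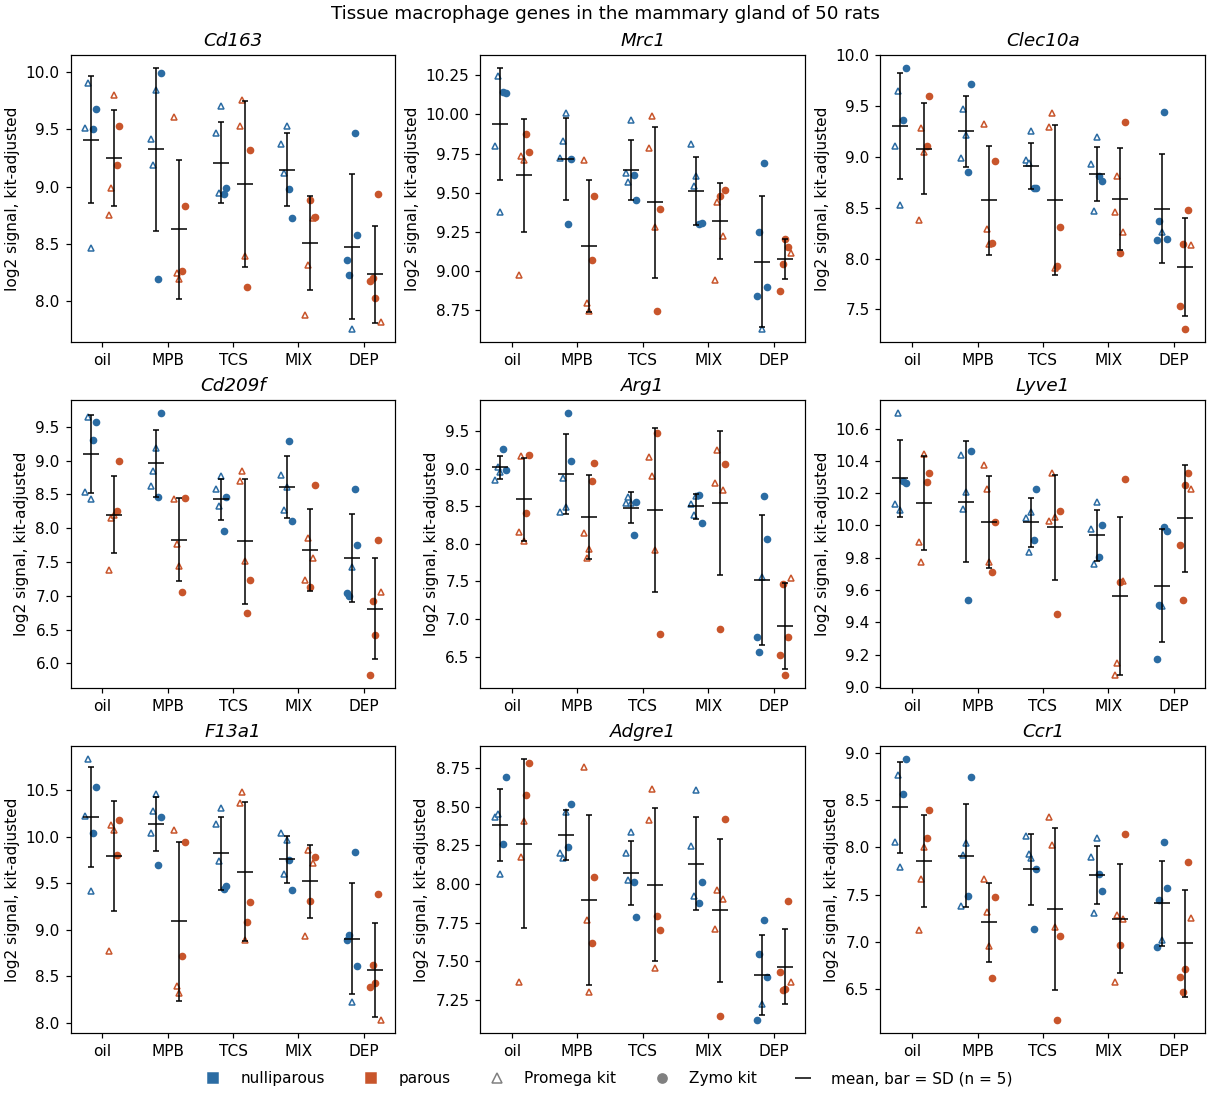
Log2 signal of each member after removal of the kit difference, by treatment, in nulliparous (blue) and parous (orange) rats. Points are single rats (open triangles Promega, filled circles Zymo), and black marks are the mean and SD of 5 rats. DEP-treated rats hold the lowest group mean for 8 of 9 genes, and nulliparous controls hold the highest for all 9.

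Arg1, which codes for the arginase that cleaves arginine to ornithine and urea and in the mouse marks alternatively activated macrophages, showed the largest difference of the 9 in parous rats. It read 6.52, 7.47, 6.26, 6.77 and 7.54 in the 5 parous DEP-treated rats and 8.16, 9.17, 8.03, 8.42 and 9.18 in the parous controls. Every treated rat lay below every control, which held for 3.98% of all genes. The log2 difference was −1.68 (SE 0.40, adjusted p = 0.00828), a 3.20-fold lower signal. In nulliparous rats Arg1 read 6.76, 6.57, 7.56, 8.63 and 8.07 with DEP and 8.85, 9.03, 8.95, 9.26 and 8.99 in controls. The groups again did not overlap, which held for 3.28% of all genes, and the treated rats were much more spread out (SD 0.87) than the controls (SD 0.15). The difference was −1.50 (SE 0.40, adjusted p = 0.0711).

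Among the uptake receptors, Cd209f, a C-type lectin gene of the DC-SIGN family, had the largest difference in nulliparous rats. It read 7.05, 7.00, 7.42, 8.59 and 7.76 in nulliparous DEP-treated rats and 8.54, 9.65, 8.43, 9.30 and 9.57 in their controls, a difference of −1.54 (SE 0.39, adjusted p = 0.0555). Only DEP_null_30 reached the range of the controls. In parous rats the values were 5.83, 6.92, 6.42, 7.83 and 7.06 with DEP and 7.39, 8.16, 8.20, 8.25 and 9.0 in controls, a difference of −1.39 (SE 0.39, adjusted p = 0.0235). Here DEP_par_41 lay above the lowest control, OIL_par_440.

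Clec10a codes for a lectin that binds galactose-type sugars. It read 7.54, 8.14, 7.30, 8.47 and 8.14 in parous DEP-treated rats against 8.38, 9.28, 9.05, 9.11 and 9.60 in controls (difference −1.16, SE 0.30, adjusted p = 0.0152). In nulliparous rats it read 8.18, 8.37, 8.26, 9.44 and 8.19 against 9.11, 9.65, 8.52, 9.36 and 9.87 (difference −0.81, SE 0.30, adjusted p = 0.187). In both parities 1 treated rat, DEP_par_41 and DEP_null_30, lay within the range of the controls. Cd163, the scavenger receptor for haemoglobin bound to haptoglobin, read 8.17, 8.21, 8.03, 8.94 and 7.82 in parous DEP-treated rats and 8.75, 8.99, 9.80, 9.19 and 9.53 in controls (difference −1.02, SE 0.33, adjusted p = 0.0600). Its nulliparous values were 8.36, 8.23, 7.76, 9.47 and 8.58 with DEP and 9.51, 9.90, 8.46, 9.5 and 9.68 in controls (difference −0.93, SE 0.33, adjusted p = 0.170). The overlap came from DEP_par_41 in parous rats, and from DEP_null_30, DEP_null_31 and the low control OIL_null_429 in nulliparous rats.

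Mrc1 codes for the macrophage mannose receptor. It read 8.84, 9.25, 8.63, 9.69 and 8.90 in nulliparous DEP-treated rats and 9.80, 10.24, 9.38, 10.14 and 10.14 in controls, and was called there (difference −0.88, SE 0.21, adjusted p = 0.0527). Only DEP_null_30 reached the range of the controls. Its parous values were 8.88, 9.05, 9.21, 9.15 and 9.12 with DEP and 8.98, 9.74, 9.71, 9.88 and 9.76 in controls. The treated rats were tightly grouped and only OIL_par_440 fell among them. The parous difference of −0.53 (SE 0.21, adjusted p = 0.115) was under the 1.5-fold limit, and it was −0.68 and called when OIL_par_440 was left out.

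Lyve1, a hyaluronan receptor, was called in nulliparous rats and not in parous rats. In nulliparous rats it read 9.17, 9.51, 9.5, 9.99 and 9.97 with DEP and 10.13, 10.69, 10.10, 10.27 and 10.26 in controls, without overlap (difference −0.66, SE 0.20, adjusted p = 0.100). In parous rats it read 9.88, 9.54, 10.25, 10.33 and 10.22 with DEP and 9.90, 9.77, 10.44, 10.27 and 10.33 in controls, and the groups lay over each other. The parous difference was −0.10 (95% confidence interval −0.50 to 0.31, adjusted p = 0.818). The difference between the parities was 0.57 (SE 0.28) with an unadjusted p of 0.0464 and did not pass adjustment (adjusted p = 1.00), so a parity-specific response of Lyve1 was not shown. None of the other 8 members reached an unadjusted p under 0.05 in that test, which called 0 of 15117 genes (2.71% at an unadjusted p under 0.05).

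Adgre1, the gene of an adhesion receptor by which tissue macrophages are marked in the mouse, read 7.12, 7.55, 7.22, 7.77 and 7.40 in nulliparous DEP-treated rats and 8.44, 8.46, 8.06, 8.26 and 8.69 in controls. No treated rat reached a control (difference −0.97, SE 0.24, adjusted p = 0.0527). In parous rats it read 7.43, 7.31, 7.32, 7.89 and 7.36 with DEP and 7.36, 8.17, 8.41, 8.58 and 8.78 in controls (difference −0.80, SE 0.24, adjusted p = 0.0344). The overlap there came from OIL_par_440 alone. Ccr1, a receptor for inflammatory chemokines such as Ccl3, read 6.95, 7.44, 7.02, 8.06 and 7.57 in nulliparous DEP-treated rats and 8.05, 8.77, 7.80, 8.56 and 8.94 in controls (difference −1.02, SE 0.33, adjusted p = 0.124). Its parous values were 6.63, 6.48, 6.72, 7.85 and 7.25 with DEP and 7.13, 7.66, 8.0, 8.09 and 8.39 in controls (difference −0.87, SE 0.33, adjusted p = 0.106). DEP_null_30 in nulliparous rats and DEP_par_41 and DEP_par_46 in parous rats lay above the lowest control, and the call in parous rats was lost without OIL_par_446.

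F13a1 codes for the catalytic subunit of coagulation factor XIII, a cross-linking enzyme that macrophages and platelets carry. It read 8.38, 8.62, 8.42, 9.39 and 8.03 in parous DEP-treated rats and 8.77, 10.13, 10.08, 9.80 and 10.18 in controls (difference −1.22, SE 0.34, adjusted p = 0.0250). In nulliparous rats it read 8.89, 8.94, 8.22, 9.84 and 8.61 against 10.23, 10.84, 9.42, 10.04 and 10.53 (difference −1.31, SE 0.34, adjusted p = 0.0644). In each parity 1 treated rat and 1 control made up the overlap. None of the 3 platelet genes tested was called in either parity, their median difference being 0.19 in parous and 0.07 in nulliparous rats. Pf4 (platelet factor 4), listed here with genes of resident macrophages, was called lower in both parities (−0.76 in parous and −0.61 in nulliparous rats). Its difference between the kits was 4.23, larger than for any member (2.42 at most). Every Pf4 difference given here therefore rests on the kit term, and its values within each kit are not given. The part of platelets in the F13a1 difference was not tested.

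Leaving out 1 rat at a time kept the nulliparous calls of Adgre1, Arg1, Cd209f, F13a1 and Mrc1 in all 10 fits, whereas Cd163 was called in 3 of the 10 (without DEP_null_30, DEP_null_31 or OIL_null_429) and Clec10a in 2 (without DEP_null_30 or OIL_null_429). Lyve1 lost its call without DEP_null_27 or OIL_null_428, and Ccr1 without either of these or OIL_null_431. In parous rats Adgre1, Arg1, Cd163, Cd209f, Clec10a and F13a1 kept theirs in all 10. The nulliparous count fell to 5 of 9 without DEP_null_27 and without OIL_null_428. With no kit term, 4 members were called in each parity, and Clec10a in nulliparous rats turned to 0.15. Within the kits the picture can be read without any adjustment. Among Zymo rats (4 treated, 2 controls) all 9 members were lower with DEP in both parities, with a median difference of −1.29 in parous rats (range −2.04 to −0.30) and −1.07 in nulliparous rats (range −1.84 to −0.61). Among Promega rats (1 treated, 3 controls) all 9 were lower in nulliparous rats, with a median of −1.18, and 8 of 9 in parous rats, with a median of −0.76. The exception was Lyve1 at 0.19. A fit of the Zymo rats alone called none of the members, and it called 2 genes of all in parous and 0 in nulliparous rats.

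**Figure D2:**
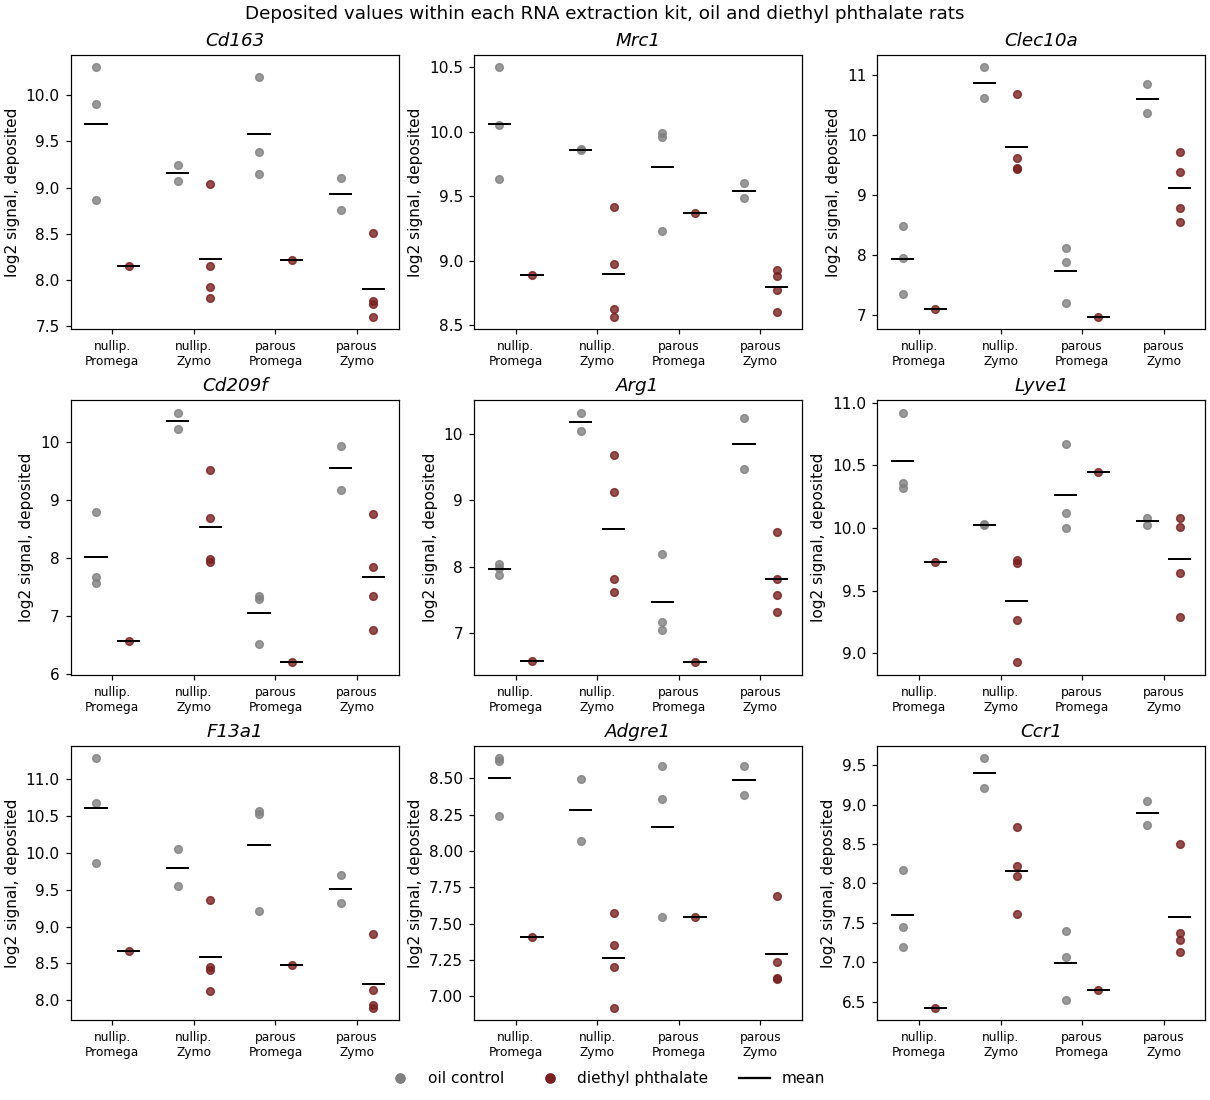
Deposited log2 signal, with no kit adjustment, of the 9 members in control (gray) and DEP-treated (dark red) rats, shown for each parity and RNA extraction kit. Points are rats and black lines are means. Within each kit the mean of DEP-treated rats lies below the mean of controls for 9 of 9 genes in nulliparous rats, and for 8 of 9 (Promega) and 9 of 9 (Zymo) in parous rats.

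MPB, TCS and MIX were each set against the same 5 controls of a parity that served for DEP, so these comparisons are not independent of one another. None of the 9 members was called in any of these 6 comparisons. The share of all genes called was 0.00662% (1 gene) for MPB in parous rats and 0% in the other 5. All 9 differences were nonetheless below 0 in each of the 6, where 49.2% (MPB), 49.6% (TCS) and 49.7% (MIX) of all genes were in parous rats and 40.8%, 52% and 50.9% in nulliparous rats. The medians of the members were −0.45 (MPB), −0.23 (TCS) and −0.50 (MIX) in parous rats and −0.09, −0.39 and −0.46 in nulliparous rats. Of all genes, 2.14% (MPB), 3.12% (TCS) and 3.92% (MIX) in parous rats and 2.62%, 5.46% and 1.56% in nulliparous rats reached an unadjusted p under 0.05 (limma). Of the members, Mrc1 (−0.45) and F13a1 (−0.70) did so with MPB in parous rats, Cd163 (−0.74) and Lyve1 (−0.58) with MIX in parous rats, Ccr1 (−0.66) with TCS in nulliparous rats, and Mrc1 (−0.43) and Ccr1 (−0.71) with MIX in nulliparous rats. The smallest adjusted p of any member in the 6 comparisons was 0.883.

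Arg1 lay apart from the nulliparous controls under 2 further treatments without being called. All 5 nulliparous rats given TCS (8.11 to 8.63) and all 5 given MIX (8.28 to 8.65) lay below the lowest nulliparous control (8.85), a separation found in 0.774% and 0.331% of all genes. The differences were −0.54 (SE 0.40, adjusted p = 0.901) for TCS and −0.52 (SE 0.40) for MIX, and neither was called. Nulliparous controls held the highest group mean of all 10 groups for each of the 9 members, and nulliparous MPB rats the second highest. Within the kits the members of TCS-treated parous rats went both ways, with 9 of 9 lower than controls among Zymo rats (median −0.80) and 1 of 9 among Promega rats (median 0.20).

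**Figure D3:**
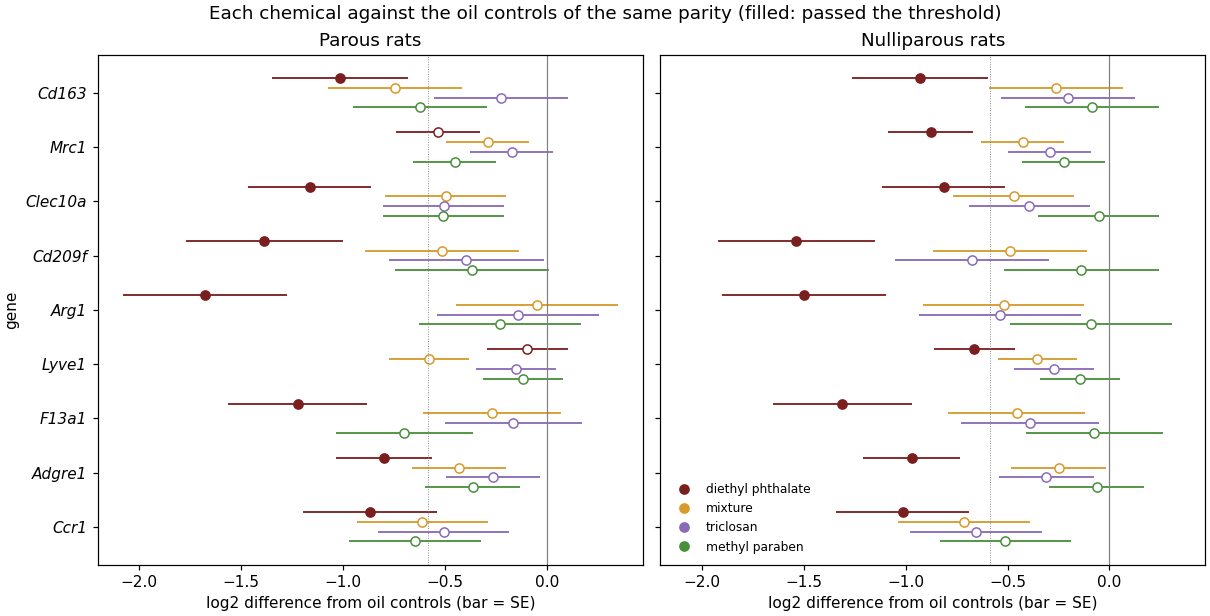
Log2 difference of each chemical from the oil controls of the same parity, with the SE of the fit, for parous (left) and nulliparous (right) rats. Filled points were called and the dotted line is 1.5-fold. DEP is called for 7 genes on the left and 9 on the right, and no other chemical is called for any of the 9.

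DEP-treated rats were also set against MIX-treated rats, which received DEP within the mixture, in a comparison that does not use the controls. In parous rats 4 of 9 members were lower with DEP alone and called, against 10.8% of all genes in both directions and 5.7% lower. Differences below 0 were found for 8 of 9 members and 57% of all genes. Arg1 read 8.81, 9.25, 6.87, 8.72 and 9.06 in parous MIX rats, and MIX_par_339 alone fell among the DEP-treated rats (difference −1.63, SE 0.40, adjusted p = 0.0102). F13a1 read 8.93, 9.86, 9.31, 9.72 and 9.78 with MIX (difference −0.95, SE 0.34, adjusted p = 0.0531), and DEP_par_41 exceeded 2 of these rats. Cd209f (−0.87, SE 0.39, adjusted p = 0.114) and Clec10a (−0.67, SE 0.30, adjusted p = 0.125) overlapped more widely. Cd209f read 7.23, 7.86, 7.13, 7.56 and 8.64 with MIX and Clec10a read 8.46, 8.81, 8.06, 8.26 and 9.34. Lyve1 stood on the other side, at 9.07, 9.15, 9.65, 9.66 and 10.29 in parous MIX rats, with a difference of 0.48 (SE 0.20, adjusted p = 0.0908) that was under 1.5-fold. The remaining members, Adgre1 (−0.37), Cd163 (−0.27), Ccr1 (−0.26) and Mrc1 (−0.24), did not pass. The count fell to 2 of 9 without DEP_par_37, a fit that called 1545 of all genes (1640 with all rats). Macrophage genes outside the set went both ways in the same comparison. Among other genes of resident macrophages, Timd4 (1.51), Marco (1.31), Siglec1 (1.23) and Vsig4 (0.70) were called higher with DEP. Gas6 (−0.68), Folr2 (−0.60) and Pf4 (−0.59) were called lower. The called genes of the pan-macrophage list, Laptm5 (1.32) and Lyz2 (1.05), were both higher. Those of lipid-associated macrophages, Cd9 (−0.83) and Lipa (−0.73), were both lower. Markers of other cells moved there too. Of 12 epithelial genes 11 were called lower with DEP (median −0.97), led by Epcam (−1.49), Krt8 (−1.48), Esrp1 (−1.46) and Cldn7 (−1.25). With the epithelial score as a covariate the count of members was 0. No count over all genes is given for that fit, so this 0 is not read as particular to the members. Of 8 fibroblast genes 5 were called lower (median −0.66), among them Col1a2 (−0.77) and Col1a1 (−0.68). Lymphoid genes were called higher with DEP in this comparison, as given further on. The part of these cells in the members' differences was not tested beyond the epithelial and lymphoid covariates.

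In nulliparous rats Adgre1 was the only member called between DEP and MIX, against 0.886% of all genes (0.794% lower). It read 8.25, 7.92, 8.61, 7.88 and 8.01 with MIX, all above the highest nulliparous DEP-treated rat (7.77), a separation found in 1.95% of all genes (difference −0.72, SE 0.24, adjusted p = 0.215). All 9 members read lower with DEP than with MIX in nulliparous rats, where 56.6% of all genes did. The differences that were not called were −1.05 for Cd209f, −0.98 for Arg1, −0.86 for F13a1, −0.67 for Cd163, −0.45 for Mrc1, −0.34 for Clec10a, −0.31 for Lyve1 and −0.30 for Ccr1. Of the 12 epithelial genes 6 were called lower here (median −0.66), and the count of members was 0 with the epithelial score as a covariate. That score ran from −0.81 to −0.27 with DEP and from −0.03 to 0.37 with MIX, without overlap. It cannot be told apart from the treatment here. No count over all genes is given for that fit, and its 0 is not read as particular to the members. The count was 0 without any one of DEP_null_27, DEP_null_28, MIX_null_327, MIX_null_329 and MIX_null_331. Those fits called 40, 12, 21, 13 and 1 of all genes, against 134 with all rats. The count of members was 2 without DEP_null_31 or MIX_null_328. It was 6 without DEP_null_30, a fit that called 218 of all genes. Without DEP_null_29 it stayed at 1, with 226 of all genes called. Calls over all genes thus shifted too, and the changes in the count are not read as particular to the members. The count was 0 in a fit of the DEP and MIX groups alone.

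Parity was followed across all treatments, with 25 parous and 25 nulliparous rats. All 9 members were lower in parous rats, where 53.6% of all genes were, and Cd209f was the only one called, against 0.642% of all genes (0.397% lower). Its mean fell from 9.10 to 8.20 in controls, from 8.96 to 7.83 with MPB, from 8.43 to 7.80 with TCS, from 8.61 to 7.68 with MIX and from 7.56 to 6.81 with DEP. The order of the means was thus the same under every treatment. The rats of both parities overlapped with OIL, TCS, MIX and DEP. With MPB the highest parous rat (8.45) and the lowest nulliparous rat (8.46) read nearly the same. The average difference was −0.87 (SE 0.17, adjusted p = 0.000780), and it kept its call whichever of the 50 rats was left out (−0.92 to −0.81). It was negative in all 5 treatments within each kit, with a mean of −0.71 among Promega and −1.0 among Zymo rats. Ccr1 (−0.52, SE 0.14, adjusted p = 0.0187) and Clec10a (−0.41, SE 0.13, adjusted p = 0.0462) had low adjusted p-values but differences under 1.5-fold. F13a1 (−0.45), Cd163 (−0.38), Arg1 (−0.32), Mrc1 (−0.25) and Adgre1 (−0.17) were not called, nor was Lyve1 at −0.05 (95% confidence interval −0.23 to 0.12). Macrophage genes outside the set went both ways with parity (limma). Mmp12 (0.62, adjusted p = 0.000185) was called higher in parous rats, and Gpnmb (0.33, adjusted p = 0.0254) was higher but under 1.5-fold. Fcgr3a (−0.54, adjusted p = 0.000151), Fcgr1a (−0.46, adjusted p = 0.00408) and Msr1 (−0.39, adjusted p = 0.00791) were lower, each under 1.5-fold. Of the monocyte and inflammatory genes, Vcan (−0.60, adjusted p = 0.0481) was called lower. Other cell markers moved with parity as well. Of 8 fibroblast genes 3 were called lower in parous rats, Fbn1 (−0.78), Col1a1 (−0.69) and Col1a2 (−0.65), and the list median was −0.46. All 11 adipocyte genes read lower (median −0.27) and none reached 1.5-fold, with Lep (−0.50, adjusted p = 0.0118), Cidec (−0.38, adjusted p = 0.00844) and Plin4 (−0.35, adjusted p = 0.00995) among those of low adjusted p. All 12 epithelial genes read lower (median −0.23) and all 11 lymphoid genes higher (median 0.50), with 0 calls in either list. Cd209f kept its call with the epithelial, adipocyte or lymphoid score as a covariate, and a fibroblast covariate was not tested. In controls alone no member was called, against 0.0132% of all genes, and Cd209f differed there by −0.90 (SE 0.38, adjusted p = 0.984).

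Across the 10 groups, most neighbours in the order of group means could not be separated. For 7 members no gap between neighbouring groups exceeded the larger SD of both, and for Clec10a and Cd209f 1 of 9 gaps did, the step from parous to nulliparous DEP-treated rats. The whole span from the lowest to the highest group was 2.29 for Cd209f and 2.10 for Arg1, and 0.73 for Lyve1. The lowest group was parous DEP for Cd163, Clec10a, Cd209f, Arg1, F13a1 and Ccr1, nulliparous DEP for Mrc1 and Adgre1, and parous MIX for Lyve1.

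After removal of group means and kit, 8 of the members varied together from rat to rat and Arg1 varied less with them. Without Arg1 the 28 pairs had Pearson r between 0.42 and 0.89 over 50 rats, with a median of 0.71. The closest pairs were Cd209f with Ccr1 (0.89), Clec10a with Cd209f (0.88) and Mrc1 with F13a1 (0.85). Arg1 had r between −0.11 (Lyve1) and 0.44 (Clec10a). The points share arrays and extractions, and these correlations are given as a description.

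Each member was also related to 5 tissue scores, means of centred log2 values over marker lists, in 45 pairs with permutation tests of 100000 resamples. Arg1 followed the epithelial score (r = 0.69, rho = 0.62, each with raw p = 1e-05, the smallest the resamples can give, and adjusted p = 0.000225). Its r was 0.59 among Promega and 0.76 among Zymo rats, and 0.63 without MPB_par_139 and MIX_par_339, the rats farthest from the median score. With the pan-macrophage score Arg1 had r = −0.12. Between rats Arg1 thus followed the epithelial score and not the pan-macrophage score, with which F13a1 also had a low r (0.15). The cell source of Arg1 was not tested. Lyve1 followed the pan-macrophage score (r = 0.78, rho = 0.76, adjusted p = 0.000225, 0.74 without the 2 farthest rats), as did Ccr1 (r = 0.57, rho = 0.52, raw p = 3e-05, adjusted p = 0.00045, permutation test). Adgre1 (r = 0.43, adjusted p = 0.0128) and Cd209f (r = 0.38, adjusted p = 0.0375) followed it less closely by the same permutation test. F13a1 ran against the lymphoid score (r = −0.53, rho = −0.58, raw p = 0.00015, adjusted p = 0.00169, permutation test), with −0.69 among Promega and −0.29 among Zymo rats. Clec10a (r = −0.44, adjusted p = 0.0128, permutation test) and Mrc1 (r = −0.38, adjusted p = 0.0410) ran the same way, and their r was −0.71 and −0.61 among Promega but −0.13 and −0.06 among Zymo rats. These were the 8 of 45 pairs with an adjusted p under 0.05 for r. Cd163, Mrc1, Clec10a and F13a1 had r of at most 0.30 with the pan-macrophage score.

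**Figure D4:**
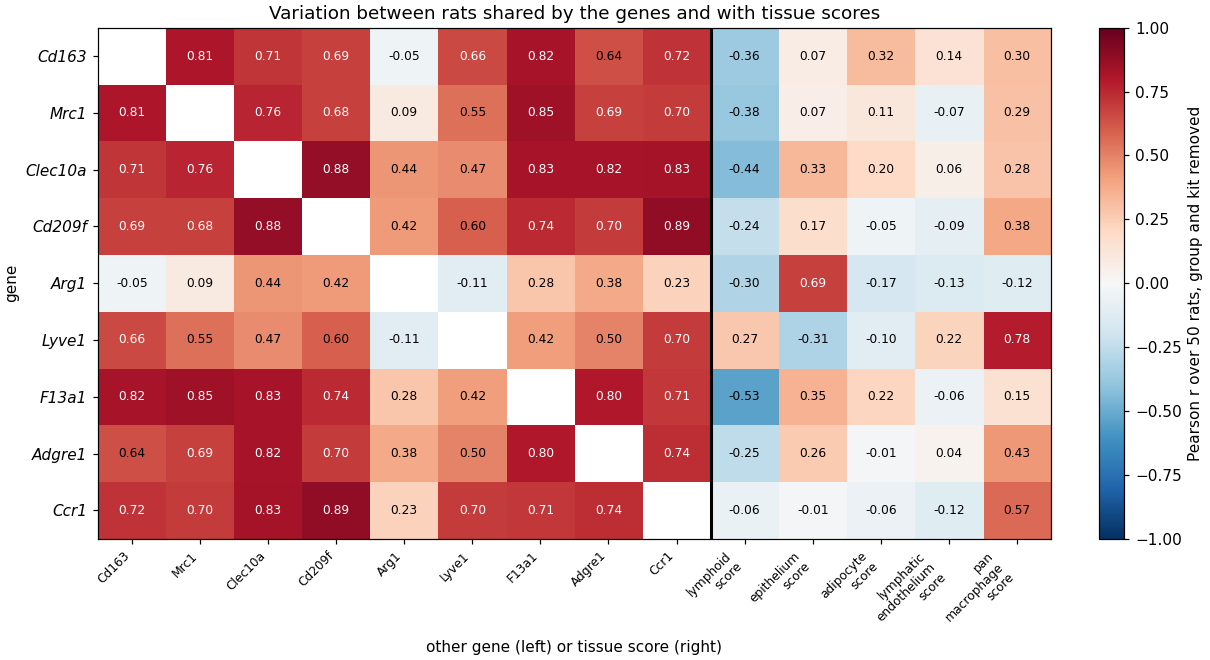
Pearson r over 50 rats between the members (left of the black line) and between members and tissue scores (right of it), after removal of group means and the kit difference. Arg1 stands apart from the other 8 genes, with r of at most 0.44 to any of them and 0.69 with the epithelial score.

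The 10 genes outside the set that varied most like the mean of the 9 members were Alox5ap (r = 0.91), Akr1c3 (0.91), Pf4 (0.89), Folr2 (0.89), Gfpt2 (0.88), Lrrn4cl (0.88), Asgr2 (0.88), Msr1 (0.87), Lvrn (0.87) and Cmklr2 (0.84), over the 50 rats after removal of group and kit. Folr2 codes for a folate receptor of tissue macrophages and Msr1 for a scavenger receptor. Both were called lower with DEP in both parities, Folr2 by −1.0 (SE 0.24) in parous and −0.99 (SE 0.24) in nulliparous rats and Msr1 by −0.89 and −0.76 (SE 0.22 each).

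Other genes of resident macrophages went both ways. Of 15 tested, 4 were called lower and 2 higher with DEP in parous rats (median −0.14), and 4 lower and 0 higher in nulliparous rats (median −0.24). Besides Folr2, Msr1 and the chemokine gene Pf4 (−0.76 and −0.61), Gas6, which bridges dying cells to their receptors, was lower in parous rats (−0.71) and the chemokine gene Ccl24 in nulliparous rats (−0.98). Marco (1.03, SE 0.51), a scavenger receptor, and Timd4 (0.90, SE 0.47), a receptor for dying cells, were higher in parous DEP-treated rats. Both calls lay near the limit of 0.25 (limma, adjusted p = 0.221 and 0.249). Of the pan-macrophage genes, which include Csf1r and Cd68, DEP gave calls for 0 of 16 in parous rats (median −0.13) and for 2 of 16 in nulliparous rats (median −0.30), both lower, Fcgr1a (−0.73) and C1qb (−0.66). Of 9 genes of lipid-associated macrophages, 5 were lower in parous rats, among them Cd9 (−0.97), Lipa (−0.92), Gpnmb (−0.77) and Mmp12 (−0.71), and 1, Lipa (−0.59), in nulliparous rats.

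Among ligands and neighbours of Ccr1, 3 of 7 were higher and 2 lower in parous DEP-treated rats. The ligand genes Ccl3 (1.02), Ccl4 (0.94) and Ccl9 (0.71) were higher, opposite to Ccr1, while Ccl6 (−1.40) and Cx3cl1 (−0.83) were lower. In nulliparous rats only Ccl6 (−0.97) of the 7 was called. Of 11 genes of arginine metabolism, 3 were lower in parous rats, Arg2 (−1.24), the mitochondrial arginase, Oat (−0.80) and Ddah1 (−0.66), and 0 in nulliparous rats. Among 14 monocyte and inflammatory genes Cd14, the endotoxin co-receptor, was lower in both parities (−1.41 and −0.83), and Il6 was higher in parous rats (0.88). Of 13 tested growth and polarising signals, Il34, a growth factor for macrophages (−0.66), and the receptor chain Il13ra1 (−0.60) were lower in parous rats, and 0 were called in nulliparous rats.

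Markers of other cells moved with the DEP comparisons. Of 12 epithelial genes, 11 were lower in parous (median −1.13) and 6 in nulliparous DEP-treated rats (median −0.60), with Epcam at −1.66 and −0.74. The epithelial score ran from −1.30 to −0.31 in parous DEP-treated rats and from −0.10 to 0.43 in their controls, and from −0.81 to −0.27 and from −0.07 to 0.43 in nulliparous rats. The scores of treated and control rats did not overlap, so the epithelial score and the treatment cannot be told apart here. With that score as a covariate no member was called, the member differences ran from −1.03 to −0.18 in parous and from −1.33 to −0.51 in nulliparous rats, and Arg1 in parous rats changed most (−0.18). The number of genes called overall was then 2 in parous and 0 in nulliparous rats.

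All 11 lymphoid genes tested read higher in DEP-treated rats, with a median of 1.34 in parous and 1.11 in nulliparous rats, but only Cd5 in parous rats (1.29) was called. The lymphoid score overlapped widely, from −1.19 to 2.59 in parous DEP-treated rats against −1.68 to 2.23 in controls. With it as a covariate, 7 and 9 members were called as before. Against parous MIX rats, however, all 11 lymphoid genes were called higher with DEP (median 2.24), and the count of members called there fell from 4 to 1 with that covariate. No count over all genes is given for the fits with the lymphoid covariate, so these counts are not read as particular to the members. Genes of lymphatic endothelium, which shares Lyve1, and of blood vessels, neutrophils and dendritic cells had 0 calls in both DEP comparisons with controls, as had the 8 fibroblast genes (median −0.38 in parous and −0.12 in nulliparous rats), and 1 adipocyte gene, Retn, was higher in nulliparous rats (0.86). The part of these cells in the members' differences was not tested beyond these covariates.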

How the data were processed

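Mammary gland RNA of 50 rats was analysed as log2 signals. The authors background-corrected, quantile-normalised and summarised array intensities by robust multi-array averaging (RMA) in Affymetrix Expression Console, and the log2 values were deposited. Their methods also name ComBat in R 3.0.2 for the extraction kit, but the deposited values still differed by kit. Arrays have no read depth, and 5 rats per group limit the precision. No pair of arrays was a copy (lowest root mean square difference 0.256). Of 36685 probesets, 18511 carried 1 gene symbol, and the probeset with the highest mean was used per gene.

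Group and kit were fitted over 50 rats with limma 3.58.1 (lmFit, eBayes, Benjamini-Hochberg) in R 4.3.3 and contrasts of groups were called at the thresholds that the methods name. Parous and nulliparous effects were compared by interaction terms. Permutation tests of correlations were two-sided and used scipy 1.17.1. The rule for named genes took all 9 members, with up to 4 called genes of each other list. Against controls, MPB, TCS and MIX are given by counts, medians and single members. Genes named beyond the rule, such as Spi1, the further called genes of other resident macrophages and of the Ccr1 ligand list, and uncalled list members, were chosen after their values were seen. The members and lists were chosen with earlier results of these data known. Alternatives covered the kit (none, ComBat, 1 kit alone), filters, probesets, spread estimation, thresholds, tissue scores as covariates and leaving out each rat. A kit difference for each parity and leaving out both Promega DEP-treated rats were added after seeing the data. The fits were tested on simulated data. Promoter coordinates are those of RefSeq (GRCr8), not of the array design. Of the fixed list genes, 13 were not measured.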

Additional observations from a re-analysis of the deposited data

Results flagged for a closer look

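In 90 sets of 5 rats (9 genes in 10 groups), 7 held a rat farther from the others than Dixon's criterion allows, and chance alone marks about 1 in 20 sets. Control rat OIL_par_440 was low for 2 genes, Mrc1 (8.98, next rat 9.71) and F13a1 (8.77, next rat 9.80). Control rat OIL_null_429 was low for Cd163 (8.46, next rat 9.5). Among DEP-treated rats, DEP_null_30 was high for Clec10a (9.44, next rat 8.37) and DEP_par_41 for Adgre1 (7.89, next rat 7.43). Arg1 was low in MIX_par_339 (6.87, next rat 8.72) and in TCS_null_230 (8.11, next rat 8.54).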

How the results depend on the processing

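No paired analysis was possible because the numbers in the labels are animal numbers that the groups do not share. In the order DEP against controls in parous rats (7 of 9 members called), the same in nulliparous rats (9), DEP against MIX in parous rats (4) and in nulliparous rats (1), the counts were 4, 4, 1 and 0 with no kit term, 0, 0, 0 and 0 with Zymo rats alone and 0, 0, 0 and 0 with the epithelial score as a covariate. Against controls, Zymo rats alone and the epithelial covariate each called 2 of all genes in parous and 0 in nulliparous rats. Those counts of 0 against controls are therefore not particular to the members. For the other settings and comparisons in this section no count over all genes is set beside the members, except for some fits without 1 rat. A change there is not read as particular to the members either. With no kit term Clec10a turned to 0.15 against nulliparous controls and to 0.30 against parous MIX rats. Promega rats alone gave 3 in parous and 0 in nulliparous rats against controls, and 0 for DEP against MIX in nulliparous rats. At an adjusted p under 0.05 with no fold limit the counts were 0 (DEP against controls, nulliparous), 1 (DEP against MIX, parous), 0 (the same, nulliparous) and 3 (parity over all treatments, from 1). DEP against MIX gave 1 in parous rats with the lymphoid score, and in nulliparous rats 4 with ComBat, 3 with the adipocyte score, 2 with array weights and 0 with only the groups compared. It also gave 0 there with a kit difference for each parity and without both Promega DEP-treated rats, settings chosen after seeing the data. Array weights gave 1 for parity in controls (from 0). Leaving out 1 rat gave 6 to 8, 5 to 9, 2 to 5 and 0 to 6 in the 4 DEP comparisons, 1 to 1 for parity and 0 to 0 elsewhere. The lowest parous count against controls was without OIL_par_446, a fit that called 644 of all genes (1008 with all rats). The cause of these shifts was not tested. Fits of 1 kit hold few rats (1 Promega DEP-treated rat per group). The intensity and variance filters, every probeset, and trend with robust estimation left each count within 1.5 times its value.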
